A study of Mus musculus with 36 samples.

Results

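WT cortical CD11c-negative microglia are the resident macrophages of the cerebral cortex of wild-type (WT) mice, sorted by FACS (fluorescence-activated cell sorting) without CD11c, the integrin subunit encoded by Itgax that marks an activated subset. The population held every cell barcode of the libraries titled as WT cortex and CD11c-negative with at least 200 detected genes, a detected gene having 1 or more counts. All 390 barcodes passed, out of 2657 cells kept in the series. They came from 5 libraries of 4 animals: animal 1 gave 155 cells in a pair of libraries, and animals 2, 3 and 4 gave 79, 80 and 76 cells. The mice were males aged 6 months, by their titles without the APPswe/PSEN1dE9 transgenes, and single cells of a CD11b-high, CD45-intermediate gate were sequenced with a Smart-seq2-based protocol. Comparison groups were 438 CD11c-negative hippocampal cells of 4 WT mice, and 454 CD11c-negative cortical cells of 4 APP/PS1 mice, males of the same age titled as APP/PS1. The series also sorted CD11c-positive cells and APP/PS1 hippocampal CD11c-negative cells. These enter the comparisons of genes only through the joint fit of all groups: its gene filter, its scaling and its shared estimate of spread. As background, a mouse prion protein promoter drives the transgenes of this line; the background strain was not given in the sources used here.

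Microglia enter the brain early in development and keep themselves by local division, and survival depends on signals through the receptor Csf1r. In the undisturbed adult brain they carry a homeostatic programme maintained by TGF-beta signalling: surface receptors that read nucleotides and neuronal signals, complement C1q, and lysosomal proteases that digest what the cells take up. P2ry12 is the ADP receptor that steers microglial processes, Cx3cr1 is the receptor for the neuronal ligand fractalkine, Tmem119 is a membrane protein used as a microglial marker, and Sema4b is a transmembrane semaphorin.

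The labels are not all in accord. The titles call all 5 libraries WT, but the genotype tag of 2 of them, those of animals 2 and 3, reads tg. Across the series tag and title disagreed in 17 of 36 libraries, and the titles were used here. The comparison groups are touched too: the tag reads tg in 2 of 6 WT hippocampal libraries (1 of the pair from animal 1, and animal 2) and wt in 4 of 6 APP/PS1 cortical libraries (those of animals 1 and 2). In each of the 3 groups the tag was in accord with the title for 2 of 4 animals. The first number in the titles also differs fully between groups, 1 and 2 in WT cortex, 7 and 8 in WT hippocampus and 3 to 6 in APP/PS1 cortex. Its meaning was not given in the sources used here, and whatever it marks cannot be told apart from the group. Results are given with and without animals 2 and 3, and per-animal values are printed in the order 1 to 4 so that each can be read for animals 1 and 4 alone. App, the amyloid precursor gene, and Prnp, the prion protein gene, did not set animals 2 and 3 apart as a pair. App stood at 138, 227, 47.3 and 156 CPM and Prnp at 14, 75.8, 35.1 and 79.2 CPM. CPM (counts-per-million) is the gene's share of all counts of the animal, on a common scale. These values, as in all comparisons of genes between groups, are also TMM-scaled, by a factor that aligns libraries of different make-up. Whether reads of the transgenes would be counted under these genes was not given in the sources used here.

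The cells held 9898982 counts, 3707275, 2285606, 2335835 and 1570266 by animal. A cell had a median of 20316.5 counts (3017 to 247915) and 741.5 genes (371 to 7338). A single count made up 24.6% of the non-zero gene-by-cell values, and values of 20 or more made up 42.0% and held 91.4% of counts. Whether reads of the same molecule were merged was not given in the sources used here, so a count need not be a molecule. The libraries shared cell barcodes: of 81 distinct barcodes 74 occurred in all 5 libraries. Cells that shared a barcode across libraries had a median correlation of 0.301 over genes, against 0.281 for cells with different barcodes, and 0 pairs were identical. Over 324 genes at 500 CPM or more, the libraries of animal 1 differed from each other by a median of 0.210 on the log2 scale. Libraries of different animals differed by 0.254 to 0.343. For the 3210 genes between 50 and 500 CPM that order was lost: 0.896 within animal 1 and 0.752 to 0.903 between animals.

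All 4 markers were detected in each animal, and P2ry12 was found in most cells. P2ry12 (ENSMUSG00000036353, GRCm38 chr3:59216272-59262871, minus strand) stood at 2157, 1664, 2120 and 1540 CPM in animals 1 to 4, 1870 ± 314 (SD, n = 4). It had a count in 346 of 390 cells, 88.7%, and in 89.0%, 96.2%, 80.0% and 89.5% of the cells of the animals. Tmem119 (ENSMUSG00000054675, chr5:113793729-113800516, minus strand) stood at 1613, 1371, 1969 and 1281 CPM, 1558 ± 308 (SD, n = 4), with a count in 308 cells, 79.0%. Animal 3 was highest for Tmem119, and the range among animals was 75% to 85.5% for its share of cells. Cx3cr1 (ENSMUSG00000052336, chr9:119901616-120069879, minus strand) stood at 1680, 1346, 1545 and 1047 CPM, 1404 ± 275 (SD, n = 4), with a count in 296 cells, 75.9%. Animal 4 was lowest in Cx3cr1, in level and in its share of cells, 64.5%. Sema4b (ENSMUSG00000030539, chr7:80186841-80226527, plus strand) was the most even over animals in level, 1395, 1187, 1147 and 1290 CPM, 1255 ± 111 (SD, n = 4). It was found in 270 cells, 69.2%, and in only 57.5% of the cells of animal 3. With animals 1 and 4 alone the means were 1849 CPM for P2ry12, 1447 for Tmem119, 1363 for Cx3cr1 and 1343 for Sema4b, each within 1 SD of the mean of 4 animals.

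**Figure D1:**
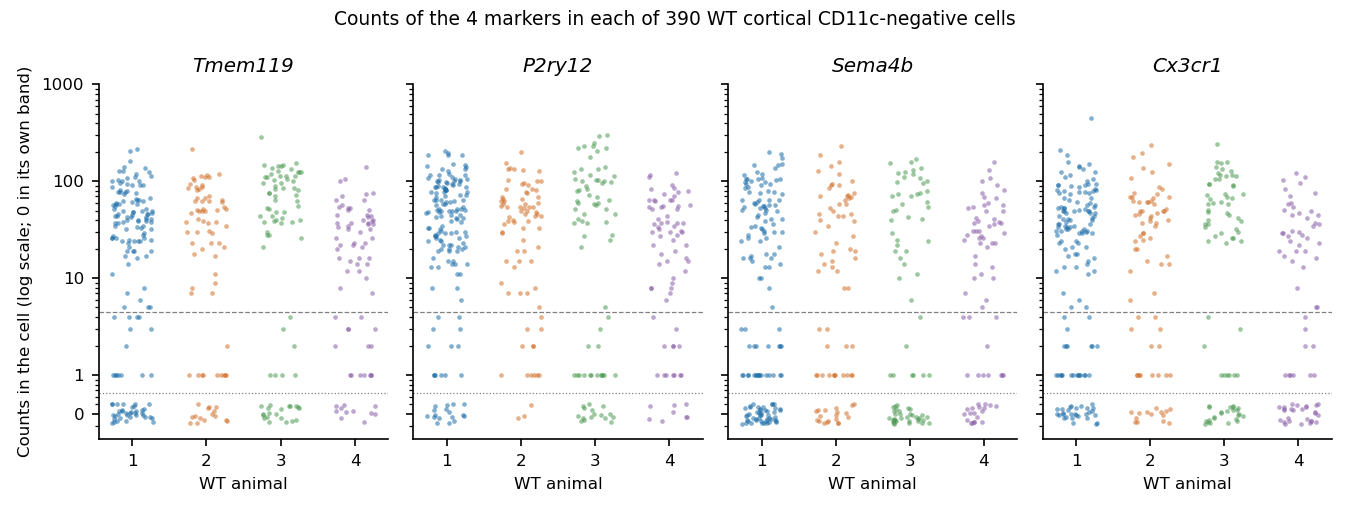
Counts of P2ry12, Tmem119, Cx3cr1 and Sema4b in each of the 390 cells (log scale, with 0 in a band of its own), by animal; the dashed line separates 1 to 4 counts from 5 or more. In every animal and for every marker some cells lie in the 0 band: 44 cells for P2ry12, 82 for Tmem119, 94 for Cx3cr1 and 120 for Sema4b.

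Among cells with at least 5 counts the median count was 53.5 for P2ry12, 48.0 for Tmem119, 47 for Cx3cr1 and 50 for Sema4b, yet 44, 82, 94 and 120 cells had none. Between 1 and 4 counts were held by 54 cells for P2ry12, 46 for Tmem119, 56 for Cx3cr1 and 61 for Sema4b, so for P2ry12 such cells outnumbered those at 0. With a threshold of 5 counts the shares fell to 74.9% for P2ry12, 67.2% for Tmem119, 61.5% for Cx3cr1 and 53.6% for Sema4b. A count of all 4 markers was found in 153 cells, 39.2%, and of 3 markers in 157 cells, while 59 cells had 2, 19 had 1 and 2 cells had none. The share with all 4 was 40.6%, 50.6%, 28.8% and 35.5% by animal, so animal 3 was lowest and animal 2 highest, and 38.96% with animals 1 and 4 alone. It was 19.7% at 5 or more counts and 24.7% after each cell was thinned to 5000 counts, which left out 6 shallower cells. The defining markers were thus present in the population as a whole, while most single profiles lacked a count of at least 1 of them. Itgax, the gene of the sorted-out protein, had 0 counts among the 9898982, which allows a level of up to 0.303 CPM (3 counts, counting error only).

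The genes with the most counts were not the 4 markers but a set of widely detected genes. CPM is not divided by gene length here, so the order is by share of counts and not by transcript number. Actb, the cytoskeletal beta-actin, stood at 11130, 9196, 8789 and 10242 CPM, 9839 ± 1056 (SD, n = 4). Cst3, the protease inhibitor cystatin C and a classic abundant microglial transcript, stood at 8207, 6886, 7046 and 7179 CPM. Animal 1 was highest for both, and without animals 2 and 3 the means were 10690 and 7693 CPM. Next came the nuclear long non-coding RNA Malat1 at 6107 ± 399 CPM, the kinase gene Bmp2k at 5224 ± 554, and Dpysl2, a microtubule-binding protein, at 5166 ± 342. Adap2os, an antisense RNA, followed at 4683 ± 376, the tetraspanin Cd81 at 4637 ± 606 and the polyamine-acetylating enzyme Sat1 at 4158 ± 545. Exactly 7 genes had a count in all 390 cells: Dpysl2, Cst3, Actb, Lrrc58, Bmp2k, Adap2os and Malat1. Adap2os and Adap2, the latter at 3022 ± 483 CPM, overlap on opposite strands, and since counting by strand was not given in the sources used here, their reads cannot be told apart.

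The rest of the 30 leading genes mixed regulators, surface receptors and general cell machinery. Receptors included Ptafr, which binds platelet-activating factor, at 3929 ± 397 CPM, and Notch2 at 3901 ± 429. The transcriptional repressor Bhlhe41 stood at 3870 ± 597 CPM and the cholesterol exporter Abcg1 at 3439 ± 660. C1qc, a chain of complement C1q, stood at 3100 ± 413 CPM in 98.5% of cells, and Ctsd, the lysosomal protease cathepsin D, at 2609 ± 368 in 90.8%. Of general machinery, the splicing-related Arglu1 stood at 3821 ± 189 CPM and Srsf2 at 3375 ± 328. Each of the 30 was detected in 90.8% to 100% of the cells, and their CV over animals (SD divided by mean) ran from 4.94% for Arglu1 to 19.2% for Abcg1. Counts were nonetheless spread over many genes: the top 10 genes held 5.59% and the top 100 held 25.05% of all counts. Of 18208 genes with a count, 37 were found in at least 90% of the cells of each animal and 169 in at least 50%. At the other end 14320 genes were each found in under 5% of cells, and together they held 17.2% of the counts.

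**Figure D2:**
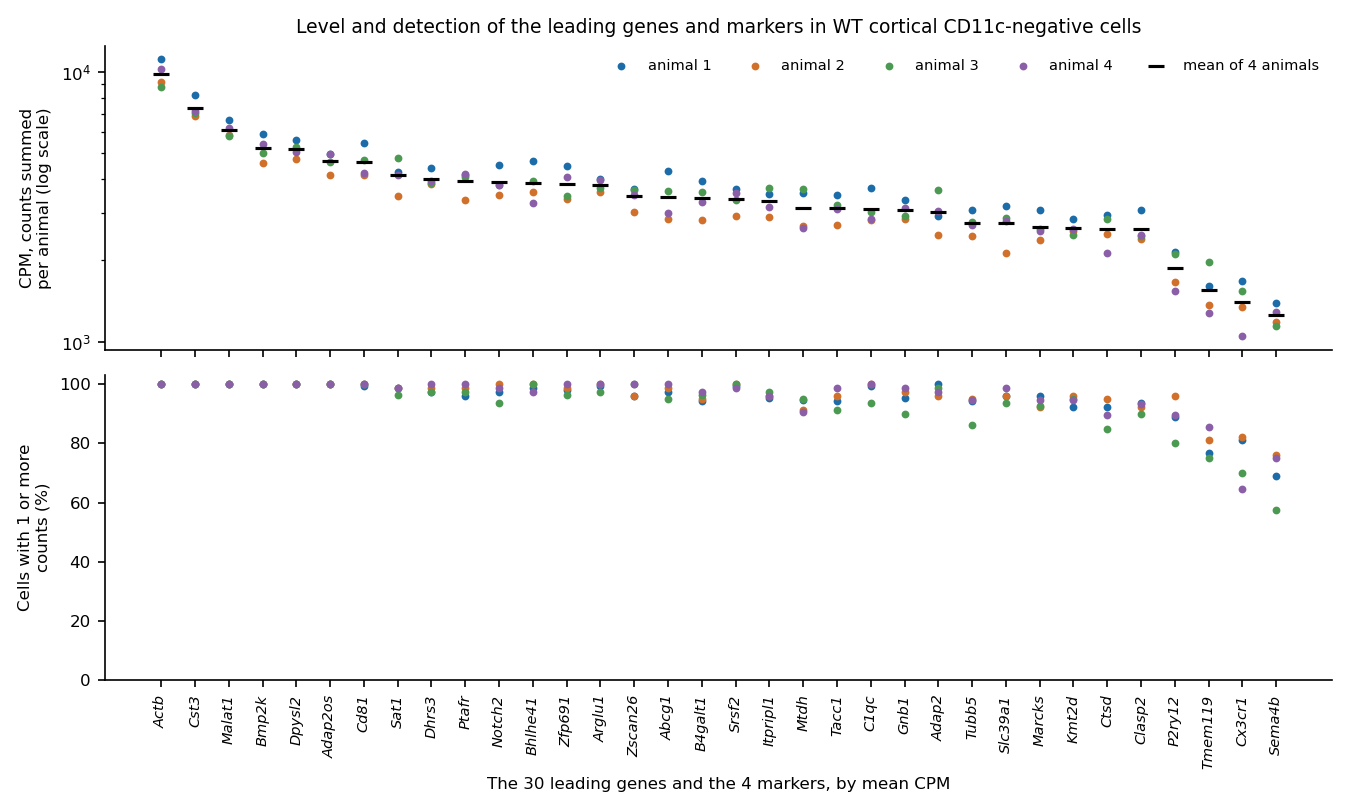
Upper panel, CPM (log scale) of the 30 leading genes and the 4 markers in each of the 4 WT cortical animals, with the mean as a bar. Lower panel, the percent of each animal's cells with 1 or more counts. The 30 leading genes were found in 90.8% or more of the cells, and the 4 markers in 69.2% to 88.7%.

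The homeostatic genes were present as a whole: 28 of 28 had counts, 24 in at least 20% of cells, and their summed level was 34550, 29180, 32320 and 26390 CPM in animals 1 to 4. Animal 1 was highest and animal 4 lowest, and the mean was 30610 ± 3572 CPM (SD, n = 4). Besides Cst3 and the markers, the protease genes Lgmn at 2279 ± 394 CPM and Ctss at 2266 ± 366 led, then Selplg, the selectin ligand PSGL-1, at 2195 ± 282. The orphan receptor gene Gpr34 followed at 1471 ± 226 CPM, found in 87.7% of cells. Fcrls, an Fc receptor-like gene, was found in 59.5% of cells at 1115 ± 174 CPM. Siglech, a sialic acid-binding lectin, was found in 54.1% of cells at 710 ± 60.7 CPM.

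Receptors with their adaptors were represented by all 11 listed members. Csf1r stood at 1733, 914, 1334 and 1054 CPM, and animal 1 was highest. Trem2, the lipid-sensing receptor, stood at 1452, 889, 1004 and 804 CPM and was found in 62.3% of cells. Its signalling adaptor Tyrobp was at 945, 792, 722 and 749 CPM in 57.7% of cells, so animal 1 led in all 3 genes. Card9, an adaptor of innate signalling, reached 70.8% of cells at only 161 ± 31.5 CPM. Among nucleotide receptors and enzymes P2ry12 stood far above P2ry13 at 240 ± 74.9 CPM, the ectonucleotidase Entpd1 at 212 ± 74.1 and the channel P2rx4 at 187 ± 120.

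All 16 transcription factors of the microglial list had counts, 5061 ± 461 CPM in sum, and most were found in few cells. Maf led with 1138 ± 162 CPM in 66.7% of cells. Fli1 stood at 923 ± 33.2 CPM in 52.1%, and its 4 animals lay between 883 and 964 CPM. Irf8 was at 590 ± 102 CPM in 31.3% of cells, and Spi1, which encodes the lineage factor PU.1, at 262 ± 80.1 in 26.2%. Of the TGF-beta pathway, 13 of 13 members listed in the files had counts. Skil, a repressor of SMAD proteins that the pathway itself induces, stood at 2256 ± 230 CPM in 86.4% of cells. The type I receptor gene Tgfbr1 stood at 664 ± 138 CPM and the integrin subunit Itgav at 504 ± 112.

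Complement was carried by the 3 chains of C1q. C1qc, C1qb at 2621, 1987, 2176 and 1594 CPM, and C1qa at 1627, 1118, 1263 and 983 CPM were highest in animal 1. C1qb was found in 89.0% and C1qa in 82.1% of cells. Itgam, the CD11b used in the sort, stood at 363 ± 74.6 CPM, and C3 and Cfp had 0 counts. The lysosomal list, 31 of 31 with counts, summed to 20940 ± 2769 CPM, with Ctsd, Lgmn, Ctss and the GM2 activator Gm2a at 2043 ± 242 CPM in front. Antigen presentation by MHC class I was carried by B2m, the invariant light chain, at 1643 ± 277 CPM in 70.8% of cells and by the peptide-loading factor Tapbp at 1238 ± 257. Class II genes summed to only 433 ± 162 CPM, 189 ± 106 of it from H2-DMa, and their invariant chain Cd74 stood at 14.4 ± 25.6 CPM in 1.03% of cells.

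Among gene lists of activated states, the early and lysosomal genes of the disease-associated state were present at high levels. Cytokines and interferon response genes were low or at 0. The low-baseline genes of the disease-associated state are listed for being low at baseline, so a low sum there is set by the choice. Their levels ran from 0 to 597 CPM. Of the early and lysosomal list 18 of 18 had counts and summed to 12300 ± 1791 CPM (SD, n = 4), with 5 or more counts in 98.97% of cells. It includes Trem2 and Tyrobp and was led by Ctsd, by Ctsb, another cathepsin, at 1830 ± 305 CPM, by B2m and by the cathepsin Ctsz at 1185 ± 129. Of 18 genes of the disease-associated state that are low at baseline, 13 had counts and summed to 1988 ± 374 CPM. Lpl, Ch25h, Gpnmb, Itgax and Lgals3 had none. Most of the sum came from the protease inhibitor Serpine2 at 597 ± 168 CPM, the tetraspanin Cd9 at 533 ± 101 and the lipoprotein Apoe at 371 ± 178, the latter in 22.1% of cells. Apoe stood at 164, 586, 315 and 420 CPM, lowest in animal 1 and highest in animal 2. Cytokines and chemokines summed to 252 ± 28.4 CPM over 11 of 15 genes, with Ccl12 at 77.5 ± 48.6 CPM, and Tnf, Il1b, Cxcl2 and Cxcl10 had 0 counts. Interferon response genes summed to 231 ± 71.9 CPM over 12 of 22, and Ifit2, Ifitm3, Irf7 and Mx1 were among the 10 with 0 counts. Cell cycle genes summed to 135 ± 49.4 CPM over 14 of 20, and Mki67 and Cdk1 had 0 counts.

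Immediate early genes, which rise within minutes of stimulation or of cell handling, were mostly found in few cells each, led by Dusp6. Of the 25 listed, 4 were found in at least 20% of cells, while 82.6% of cells held 5 or more counts of the list. They summed to 2930 ± 492 CPM over 23 of 25 genes. Dusp6, a phosphatase that limits ERK signalling, stood at 1644, 980, 951 and 736 CPM and was found in 78.5% of cells. Animal 1 was far above the others in Dusp6, and its anti-proliferative neighbour in the list, Btg2, stood at 537 ± 233 CPM. Jun was found in only 9.23% of cells, at 156 CPM, and Klf2 and Klf4 had 0 counts. In energy metabolism all 22 oxidative phosphorylation genes had counts and summed to 2999 ± 614 CPM, led by Cox7c at 390 ± 147. Hexokinase 2 (Hk2), the entry enzyme of glycolysis, stood at 549 ± 87.8 CPM.

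Markers of other blood and border cells were nearly absent, while those of neurons and glia were not. Border-associated macrophage genes summed to 98.0 ± 50.6 CPM, of which Stab1 gave 80.8 in 13.1% of cells. Mrc1 stood at 2.44 CPM and Cd163, Cbr2, Ms4a7 and Clec10a had 0 counts. Neutrophil genes had 0 counts over the 3 listed in the files, monocyte genes summed to 10.3 CPM and lymphocyte genes to 43.6 CPM. Neuronal genes, 16 of 16 with counts, summed to 993, 2050, 546 and 1982 CPM, and animals 2 and 4 were far above animals 1 and 3. Single cells bear on these sums, most in animals 3 and 4. The cell with the most neuronal counts held 11.4%, 25.2%, 70.6% and 45.8% of them in animals 1 to 4, and without it the sums were 896, 1651, 173 and 1277 CPM. The imprinted long non-coding RNA Meg3 gave 582 ± 297 CPM of this and was found in 32.6% of cells. Astrocytic genes, 11 of 12, summed to 564, 2113, 570 and 1336 CPM, with the glutamate transporter gene Slc1a3 at 366 ± 144 CPM, Slc1a2 at 226 and Aldh1l1 at 0. Without the top cell of each animal the astrocytic sums were 510, 1699, 254 and 793 CPM; in animals 2, 3 and 4 it was the cell that led in neuronal counts, with 2349, 3597 and 7338 genes. Oligodendrocytic genes, 12 of 12, summed to 312 ± 104 CPM, including Cnp at 83.0 and Mbp at 81.9.

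Cells with neuronal counts had more genes and a smaller homeostatic share. At least 5 neuronal counts were found in 106 cells, 27.2%, or 29.0%, 38.0%, 12.5% and 27.6% by animal. These cells had a median of 848.5 genes against 719.5 in the other cells, and 620.5 against 529.5 after thinning to 5000 counts. Their homeostatic genes summed to a mean of 29460 CPM per cell against 36270, lower in each of the 4 animals. P2ry12 was found in 89.6% of them and in 88.4% of the other cells. At least 5 astrocytic counts were found in 87 cells and both kinds in 44 cells. Across all marker lists of other cell types, 209 of the 390 cells, 53.6%, held 5 or more such counts (54.8%, 60.8%, 42.5% and 55.3% by animal). The cell with the most genes and counts, in animal 4, held 7338 genes, 247915 counts, 1425 neuronal and 1049 astrocytic counts and 2723 CPM of homeostatic genes. It had 0 counts of Tmem119 and Cx3cr1, 1 of P2ry12 and 49 of Sema4b. Doublets were not called, 7 cells had over 2000 genes, and the part of doublets in these counts was not tested.

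Cell-to-cell spread was measured as the CV over the cells of each library, averaged over animals, for the 513 genes at 200 CPM or more and found in at least 20% of cells of each animal. The median CV was 1.90, with the 5th and 95th percentiles at 0.684 and 2.83. Genes were ranked by the excess of log2 squared CV over a running median of 51 genes of like level. At the high end of level that median rests on a common last window, so the most abundant genes are set partly against lower ones. The most even gene was Lrrc58, a leucine-rich repeat protein gene, with a CV of 0.368 ± 0.0297 (SD, n = 4 animals) at 2438 ± 252 CPM. Cst3 at 0.412 ± 0.0150, Malat1 at 0.413 ± 0.0290 and Adap2os at 0.415 ± 0.0142 were close to it. Ftl1, the ferritin light chain, had a CV of 1.5 and Hyou1, a chaperone of the endoplasmic reticulum, 1.02 ± 0.0624, low for their level. Tmem119 was the most even marker for its level, with a CV of 0.934 ± 0.0249 and an excess of -0.58. P2ry12 had 0.846 ± 0.0965 and -0.30, and Cx3cr1 1.07 ± 0.148 and -0.28. Sema4b, with 1.23 ± 0.123 and -0.01, lay on the line of genes of like level.

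The genes of largest spread differed in how many cells held a count. Snrnp70, a spliceosome subunit, led with a CV of 3.63 ± 0.214, and the 39 cells with the highest level held 93.1% of its sum. It was found in 26.2% of cells. Cdk6, a cyclin-dependent kinase of the G1 phase, had a CV of 1.75 ± 0.0918. The median cell held 21.4 CPM of Cdk6, the 95th percentile was 6050 CPM and the highest cell had 21320 CPM. It was found in 51.5% of cells. Arap3, a GTPase-activating protein of the Arf family, was found in 63.3% with a CV of 1.32 ± 0.158. The cytoskeletal linker Dst had 2.19 ± 0.138, the Wnt effector Tcf7l2 1.72 ± 0.307, the calcineurin subunit Ppp3ca 1.55 ± 0.149 and the superoxide dismutase Sod1 1.34 ± 0.192. The mitochondrial ribosomal RNA mt-Rnr1 had 1.89 ± 0.348, and its level of 1993 CPM in animal 2 lay above 722, 643 and 869 CPM in the other animals. With animals 1 and 4 alone Lrrc58 had a CV of 0.350, Cdk6 1.69 and Snrnp70 3.73, and none of the CVs named here moved by more than 1 SD.

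**Figure D3:**
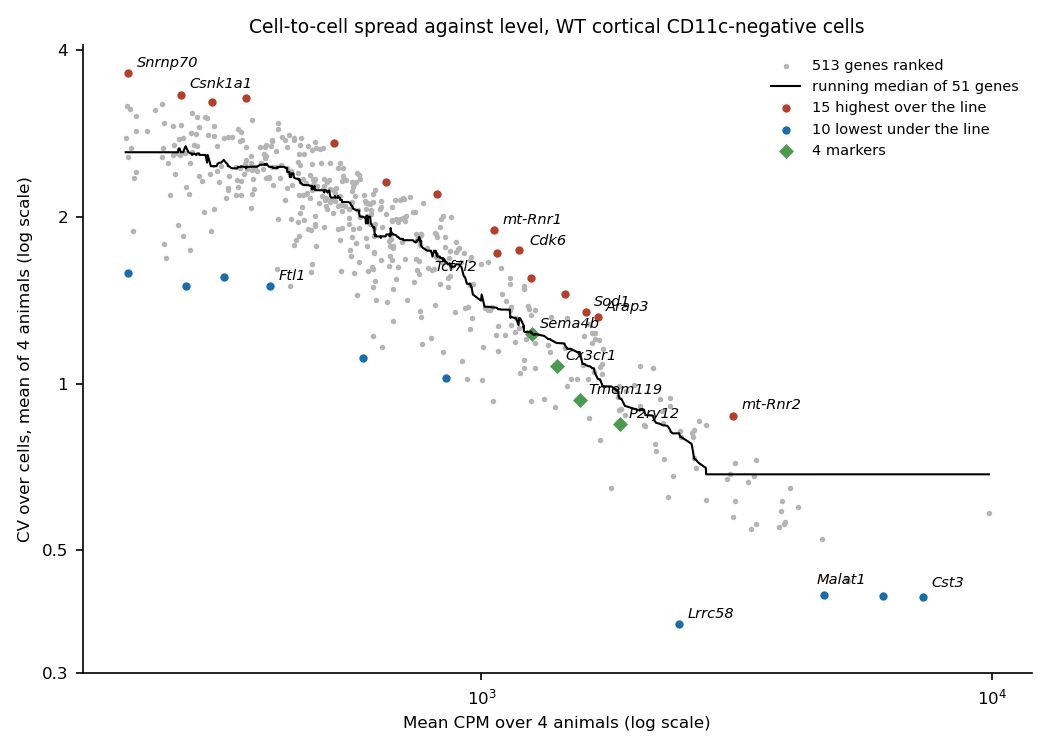
CV over cells against mean CPM (both log scales) for 513 genes, with a running median of 51 genes as the line, the genes of highest and lowest excess in colour and the 4 markers as diamonds. Lrrc58, Cst3, Malat1 and Adap2os lie far below the line and Snrnp70, Cdk6 and Arap3 above it; Tmem119, P2ry12 and Cx3cr1 lie below it and Sema4b on it.

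Co-expression was the Pearson correlation over the 390 cells of log2(counts per 10000 + 1), centred within library, for 233 genes found in at least 40% of the cells of each animal. Cells of a library share preparation and each cell's counts share a total, so values are descriptions. Over 27028 pairs the median r was 0.0121, the 99th percentile 0.162, and 38 pairs exceeded 0.3. Most of the highest pairs were gene models with shared sequence: 12 of the 15 highest shared at least 1 stretch of 50 bases on the same strand. The shared part ran from 4.68% of the smaller model's stretches (Gm10800 with Gm21738) to 100% (mt-Co3 with Gm28437). Among the 12 were mt-Co3 with Gm28437 (r = 0.972), Csnk2a1 with Gm10031 (0.961) and Tpm3 with Tpm3-rs7 (0.725). Their counts may be divided reads of the same transcripts and are uncertain for each model. Of 28 other named pairs, 0 shared such a stretch. Rbm26 and Gm17066, at 0.926, overlap on the genome.

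The ubiquitin gene Ubb beside Gm1821 (r = 0.981) and Gm8797 (0.974) shows how alike such models can be. Gm1821 is annotated as a processed pseudogene and Gm8797 as protein-coding. Shown are the first 90 coding bases of Ubb and the best matching 90 bases of the other models, with capitals for bases that differ from Ubb. The sequences are from the GENCODE transcripts on GRCm38. Positions are counted from 1 at the first base shown. Gm1821 differs by A45G and Gm8797 by C69T. The stretches lie at chr11:62552146-62552235 for Ubb, chr14:46084354-46084443 for Gm1821 and chr3:5750904-5750993 for Gm8797, all on the plus strand.
Ubb: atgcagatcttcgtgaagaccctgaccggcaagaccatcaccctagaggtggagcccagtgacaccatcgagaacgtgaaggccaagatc
Gm1821: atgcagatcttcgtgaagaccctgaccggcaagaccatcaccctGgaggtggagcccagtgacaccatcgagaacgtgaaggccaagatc
Gm8797: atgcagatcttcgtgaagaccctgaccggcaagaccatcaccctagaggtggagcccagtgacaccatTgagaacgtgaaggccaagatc

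The 3 highest pairs without shared sequence joined Cst3, Actb and Malat1. Cst3 with Actb had r = 0.767 (0.785, 0.844, 0.635 and 0.841 by animal), Actb with Malat1 0.753 and Cst3 with Malat1 0.667. Given depth and genes per cell, the partial values were 0.485, 0.438 and 0.268. Without animals 2 and 3 the plain r values were 0.805, 0.730 and 0.667. Among annotated genes, a choice made after the values were seen, Adap2 with Adap2os followed at 0.553, with a partial r of 0.527; these are the overlapping models. Actb with Adap2os had 0.498, Actb with Bmp2k 0.494, Lrrc58 with Bmp2k 0.444 and Cst3 with Cd81 0.394. For the first 2 of these the partial r was 0.161 and 0.150, and for Lrrc58 with Bmp2k 0.295. The lowest pairs were Actb with Gm10837 at -0.387, Cst3 with Gm10837 at -0.364 and Card9 with Cst3 at -0.280.

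The 4 markers were at most weakly correlated with each other from cell to cell. Tmem119 with P2ry12 had r = 0.168 (0.110 to 0.270 over animals), just above the 99th percentile of all pairs. Tmem119 with Cx3cr1 had 0.120 (0.0933 to 0.184 over animals), above the 95th percentile of 0.110. Both genes were found together in 282 cells for Tmem119 and P2ry12, where independent detection would give 273.9. P2ry12 with Cx3cr1 had 0.0767, between -0.0968 and 0.279 over animals. The 3 pairs with Sema4b lay between -0.0579 and 0.0154. The highest partners of Tmem119 were Ctsd at 0.177, the histone gene H3f3b at 0.176 and C1qb at 0.160. For P2ry12 they were Actr2, an actin-branching subunit, at 0.193 and C1qc at 0.159. For Cx3cr1 Cd81 was highest at 0.127, then Fcrls at 0.122. Sema4b had Gm17066 at 0.172 and Lrrc58 at 0.171. In counts with so many zeros values of this size are weak, and a low r does not show independence.

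**Figure D4:**
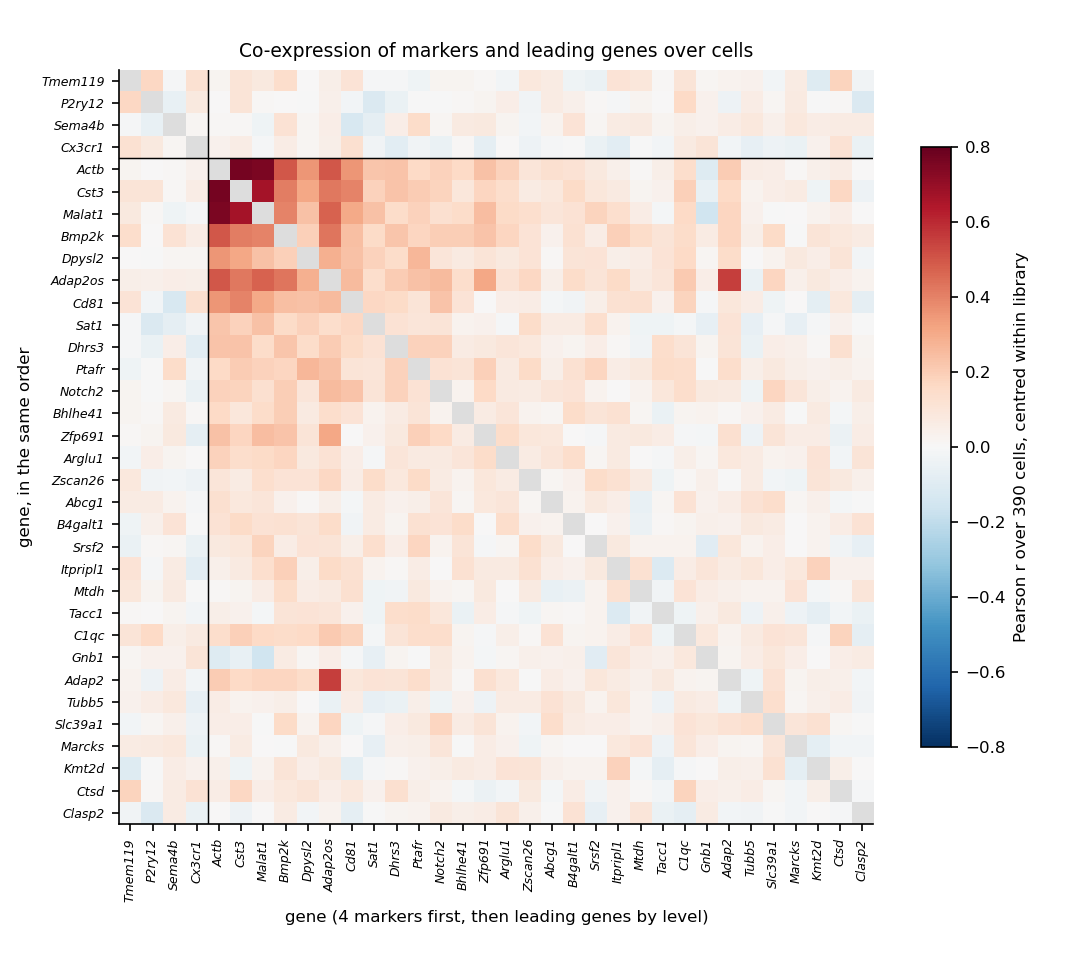
Pearson r over 390 cells, centred within library, between the 4 markers (first rows and columns, set off by lines) and the leading genes in order of level. A block of high values joins Actb, Cst3, Malat1, Bmp2k and Adap2os, at 0.397 to 0.767, while the 4 markers are pale against each other, at -0.0579 to 0.168.

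The evenly expressed genes took a smaller share of the counts in cells of many genes. With each cell thinned to 5000 counts (384 cells), the number of genes had r = -0.765 with Malat1, -0.733 with Actb, -0.710 with Cst3, -0.602 with Adap2os and -0.486 with Bmp2k. The 4 markers had values between -0.0732 and -0.00593. The summed homeostatic list had -0.628 (-0.761 to -0.437 over animals), the lysosomal list -0.378 and the complement list -0.283. The neuronal, astrocytic and oligodendrocytic lists had 0.390, 0.391 and 0.386. Across cells the homeostatic sum rose with the lysosomal sum (r = 0.573, with 3 genes in both lists) and with complement (0.451), and ran against the neuronal (-0.377) and astrocytic (-0.355) sums. Shares of 1 total push each other down, and the part of this in these values was not tested.

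Against WT hippocampal CD11c-negative cells, the sums over all cortical cells had higher neuronal and glial genes and lower levels of several widely found genes. Counts were summed per animal and compared with edgeR's quasi-likelihood test in a fit of all 6 groups of the series (23 sums, 17 residual degrees of freedom), with Benjamini-Hochberg adjustment at 0.05. In the APP/PS1 hippocampal CD11c-positive group some titles join animal numbers, so those sums are not of single animals. Numbered animals recur across regions and gates, and the fit treats all sums as independent. Of 14892 genes tested 243 were called, 1.63%: 208 higher (1.4%) and 35 lower (0.235%) in the cortex. The median log2 fold change of all genes was 0.22. The call rests on the setting: 0 genes were called in a fit of these 2 groups alone, 0 with animal as a block (both regions came from the same numbered animals) and 118 (116 higher, 2 lower) without animals 2 and 3. DESeq2 called 1534. The 7 cortical cells of over 2000 genes, which held 8.79% of the counts (hippocampus had 0 such cells), bear on this count. With such cells left out of every group 2 of 13521 genes were called, both higher: Sdhd, a subunit of succinate dehydrogenase (623 counts in cortex, 2 in hippocampus), and Elf2, an ETS family transcription factor (422 and 1), which were picked out after their values were seen. In a fit keeping only animals of both groups whose tag and title were in accord, 2 against 2, 14 genes were called (14 higher, 0 lower), 8 of them among the 243. None of the genes and list members described below was called in either of these fits. With the cells of 5 or more other-type counts left out, 0 genes were called, in 181 cortical cells and with 11043 genes tested. Leaving out 1 animal gave 96 to 324 genes, with 111 and 123 without cortical animals 2 and 4 and 96, 139 and 111 without hippocampal animals 2, 3 and 4. Sums alone do not separate fewer cells with a transcript from less transcript per cell. Cells with a count are given below for some genes. Whether the animals were of separate litters or prepared on separate days was not given in the sources used here. The p-values rest on a spread estimated over the sums of all 6 groups, and reach no further than these animals.

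The named genes of largest fold higher in cortex all had 0 counts in the hippocampal cells. Ranking by fold puts genes at 0 in the other group first, so this 0 follows largely from the rule for naming. That rule also required the adjusted p under 0.05 and groups that did not overlap. Kif1a, a kinesin of synaptic vesicle precursors, stood at 14.3, 308, 69.7 and 210 CPM (TMM-scaled) in cortex, from 21 of 390 cells. All hippocampal animals were at 0, with a count in 0 of 438 cells (edgeR adjusted p = 0.0133). The cortical level of Kif1a was 442-fold a floor of 3 counts over the hippocampal group. Animals 2 and 4, those with the highest summed neuronal CPM, were highest. Ptprd, at 48.4, 157, 36.6 and 269 CPM, stood at 368-fold this floor. Arpp21, a neuronal phosphoprotein gene, stood at 393-fold, with animals 2 and 4 highest in both genes. The sodium channel Scn1a, the calcium sensor Hpcal4, the imprinted Rian and Ahi1 stood at 173- to 208-fold this floor. The floor covers counting error only. A count need not be a molecule, and the counts of these genes sat in 11 to 32 of 390 cortical cells. The folds are therefore not lower bounds. Without animals 2 and 3 the adjusted p of Hpcal4 by edgeR was 0.0806, above the threshold of 0.05.

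By list, 5 of 16 neuronal genes were higher (Syt1, Meg3, Camk2a, Stmn2 and Nefl), 6 of 12 astrocytic (Slc1a2, Gja1, Aldoc, S100b, Sox9 and Clu) and 3 of 10 tested oligodendrocytic (Mbp and Mobp among them), where 1.4% of all genes were. The lists were chosen with earlier results of these data known, so these shares, and those of the lists below, are descriptions. Leaving out 1 animal gave 2 to 7 neuronal, 3 to 6 astrocytic and 1 to 3 oligodendrocytic genes, and leaving out animals 2 and 3 gave 4, 4 and 3. Summed neuronal genes stood at 546 to 2050 CPM in cortex and at 0 to 138 CPM in hippocampus, 1393 ± 743 against 56.8 ± 60.8 (SD, n = 4 each). The groups did not overlap for any of the 3 lists: astrocytic genes ran from 564 to 2113 against 231 to 484 CPM, and oligodendrocytic from 211 to 458 against 0 to 57.0 CPM. Without the cell that held the most of a list in each animal, the astrocytic ranges overlapped, 254 to 1699 against 116 to 439 CPM. The neuronal ranges, 173 to 1651 against 0 to 89.6, and the oligodendrocytic, 132 to 364 against 0 to 20.3, did not. Cells with 5 or more counts of the 3 lists made up 43.1% of the cortical cells, 17.4% of the hippocampal cells and 35.5% of APP/PS1 cortical cells. Prnp, the prion protein gene, was also higher, by 6.48 ± 1.22 (log2 ± SE, adjusted p = 0.00852), from 6 counts in hippocampus to 443 in cortex, and stood at -1.27 once cells with other types' counts were left out.

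**Figure D5:**
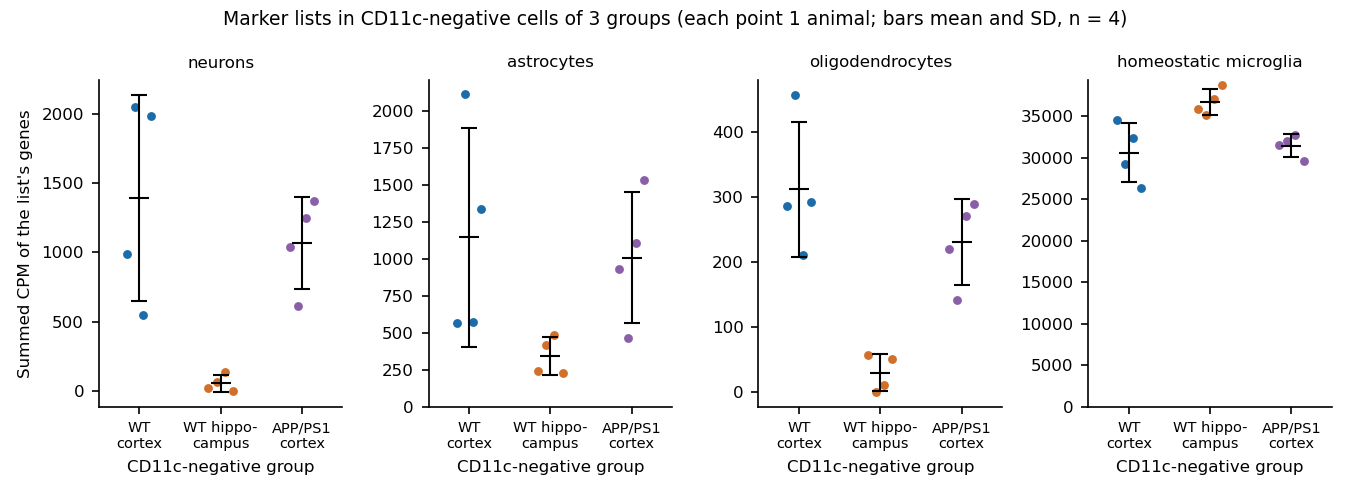
Summed CPM of marker lists in CD11c-negative cells of WT cortex, WT hippocampus and APP/PS1 cortex; each point is 1 animal, bars give mean and SD (n = 4). Neuronal, astrocytic and oligodendrocytic sums lie higher in all 4 WT cortical animals than in any WT hippocampal animal, homeostatic sums lie lower, and WT and APP/PS1 cortex overlap.

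The genes lower in cortex differed by modest folds and had counts in both regions. Lpcat1, which remodels membrane phospholipids, stood at 692, 497, 736 and 791 CPM against 1405, 1323, 1694 and 1354 in hippocampus, -1.09 ± 0.21 on the log2 scale (adjusted p = 0.00938). The groups did not overlap, as for all 10 lower genes named, which the rule for naming required; they did not for 5.37% of all genes tested. Plxdc2, a plexin domain protein gene, stood at 415, 189, 182 and 296 CPM against 774, 573, 811 and 906 (-1.503 ± 0.29, adjusted p = 0.00938). Cdk6 and Arap3, both among the genes of largest spread, fell by 1.04 ± 0.24 (adjusted p = 0.0285) and 0.88 ± 0.17 (adjusted p = 0.0109). For Arap3 the animals stood at 1632, 1004, 2097 and 1813 against 3147, 2842, 3610 and 2438 CPM. The splicing scaffold Srrm2 (-0.71), the deadenylase subunit Pan3 (-0.80), Mcmbp (-0.77), the m6A reader Ythdf2 (-0.93), the ubiquitin ligase Dtx4 (-1.71) and the cohesin loader Nipbl (-1.95) were the others. Without animals 2 and 3 only Arap3 of these passed (adjusted p = 0.0353). With animal as a block their adjusted p lay between 0.276 and 0.615.

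Of 28 homeostatic genes 3 fell and 0 rose, where 0.235% of all genes fell: Csf1r by 0.82, Selplg by 0.55 and Cst3 by 0.39 on the log2 scale, and only 1 was called without animals 2 and 3. Leaving out 1 animal gave 0 to 5 homeostatic genes called lower. The list's median was -0.40, against 0.22 for all genes tested. Its summed level was 26390 to 34550 CPM in cortex and 35180 to 38740 CPM in hippocampus, with no overlap, and 26040 to 34410 against 34930 to 38700 CPM without each animal's top cell of the list. None of the 4 markers passed in this test. Tmem119 came nearest, at 1672, 1366, 1812 and 1225 against 2025, 1873, 2770 and 1924 CPM, -0.50 ± 0.14 (adjusted p = 0.0743), and passed with DESeq2 (adjusted p = 0.0409). P2ry12 had -0.18 ± 0.15, Cx3cr1 -0.27 ± 0.17 and Sema4b -0.30 ± 0.18. Of other lists, Skil of the TGF-beta pathway fell by 0.70, Ctsd and Laptm5 of 31 lysosomal genes fell, and Ccl3 was the 1 of 11 cytokine genes that rose. Lpl had 0 counts in cortex and 169 in hippocampus and was called lower. Without animals 2 and 3, 0 members of the TGF-beta, lysosomal and both disease-associated lists were called lower. Leaving out 1 animal gave 0 to 4 lysosomal genes lower and 0 to 1 of each of the other 3 lists. It gave 0 to 2 cytokine genes higher.

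Cortical cells also had more genes per count. At 5000 counts a cell held a mean of 564, 659, 516 and 623 genes in cortex and 464, 423, 467 and 388 in hippocampus, 590 ± 63.5 against 436 ± 37.5 (SD, n = 4 each). The groups did not overlap, and the two-sided exact permutation p was 0.0286, the smallest that 4 against 4 allows, or 0.114 adjusted over 8 comparisons. The mitochondrial share was 1.12% ± 0.290 against 0.665% ± 0.0683, with the same p-values by the exact permutation test. Mean log2 depth was 14.31 against 14.20 (exact permutation p = 0.543). These measures moved with the gene results above, and their part in them was not tested.

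Against APP/PS1 cortical CD11c-negative cells, edgeR's quasi-likelihood test called 0 of 14892 genes, 0% (1354 at an unadjusted p under 0.05; DESeq2 called 241). The markers differed by -0.13 ± 0.14 for Tmem119, -0.03 ± 0.15 for P2ry12, -0.11 ± 0.18 for Sema4b and 0.10 ± 0.17 for Cx3cr1 on the log2 scale, WT minus APP/PS1. The homeostatic sum was 30610 ± 3573 against 31460 ± 1366 CPM and the neuronal sum 1393 ± 743 against 1070 ± 331. Prnp stood at 14, 75.8, 35.1 and 79.2 against 140, 107, 144 and 234 CPM, lower in every WT animal but not past the test (-1.62 ± 0.93, adjusted p = 0.708). Groups failed to overlap for 2.21% of all genes in this comparison. Genes per 5000 counts were 590 ± 63.5 against 548 ± 88.9, within the spread of the animals (exact permutation p = 0.429, 0.686 adjusted). A miss of the threshold does not show that the groups are alike. The count was also 0 without animals 2 and 3, with animals 1 and 4 against APP/PS1 animals 3 and 4, whose tags and titles are in accord, and without cells of over 2000 genes (7 WT and 11 APP/PS1 cells).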

How the data were processed

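Single microglia were sorted into plates and sequenced with a Smart-seq2-based protocol, per the labels' protocols. Reads were handled with UMI-tools 0.5.3, HISAT2 2.1.0 and featureCounts 1.6.0 on GRCm38 (mm10), per the submitters' processing notes. The authors deposited a raw, not normalized count for each gene in each cell; merging of molecular identifiers was not given in the sources used here. Cells with at least 200 genes were kept. Groups came from the titles. CPM, detection, CV and r were computed in Python 3.11.15 (numpy 2.4.6, scipy 1.17.1, pandas 2.3.3). Sums per animal were tested with edgeR 4.0.16 (limma 3.58.1, R 4.3.3): TMM scaling, filterByExpr, quasi-likelihood test, Benjamini-Hochberg adjustment at 0.05; DESeq2 1.42.0 was an alternative. Both scripts were tested on simulated data. Symbols and positions came from GENCODE vM21, which covered 26348 of 26348 gene identifiers. The population and the 28 gene lists were chosen with earlier results of these data known.

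Named genes were the 4 markers; the 30 genes of highest CPM, leaving out mitochondrial, ribosomal protein, predicted and pseudogene models; the 15 highest and 10 lowest by excess spread; the 15 highest and 5 lowest pairs with the 5 highest partners of each marker; the 4 highest members of each list; and, per comparison, the 10 higher and 10 lower genes of largest fold whose higher group reached 50 CPM and whose animals did not overlap, with App, Prnp and Itgax. Some genes that this rule names are not reported here. WT cortex and hippocampus came from the same numbered animals; same-numbered sums had r of -0.004, 0.043, -0.041 and -0.043 in their deviations from the group means.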

Additional observations from a re-analysis of the deposited data

Results flagged for a closer look

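Of 136 sets of 4 animals' values looked at, 10 held an animal far from the other three, measured as its gap to the nearest over the whole range; chance gives about 1 in 20 sets. For levels in WT cortex, Dhrs3 was highest in animal 1 at 4410 CPM (next 3924), Clasp2 was highest in animal 1 at 3080 CPM (next 2490), and Ptafr was lowest in animal 2 at 3337 CPM (next 4068). For summed lists, the TGF-beta pathway was lowest in animal 4 at 3670 CPM (next 4488), the cell cycle list was highest in animal 4 at 207.6 CPM (next 117.1), and red blood cell genes were highest in animal 3 at 65.5 CPM, where the next animal had 0.637 CPM. The CV over cells of Lrrc58 was lowest in animal 1, at 0.324 (next 0.377). In the comparison groups, Srrm2 was highest in WT hippocampus animal 3 at 4338 CPM (next 3634), Prnp stood at 1.69 CPM in WT hippocampus animal 1 and at 0 in the others, and App was highest in APP/PS1 cortex animal 4 at 332 CPM (next 72.6).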

How the results depend on the processing

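The comparison of WT cortex with WT hippocampus gave 243 genes, and 0 in a fit of the 2 groups alone (8027 genes tested), 0 with the replicate block, that is with the animal number as a pairing term, 1534 with DESeq2, 118 without animals 2 and 3, and 0 without cells of 5 or more counts of other types' markers (11043 genes and 181 cortical cells left). A pair of fits chosen after seeing the data gave 2 genes without cells of over 2000 genes and 14 with only animals whose tag and title were in accord. Of the 118 genes 114 were among the 243. DESeq2 size factors in edgeR gave 250 genes (91.6% higher, against 85.6%) and moved the median of all genes from 0.22 to 0.34, and no gene filter gave 308. Leaving out 1 animal gave 96 to 324. Against APP/PS1 cortex the count of 0 became 241 with DESeq2 and 1 without a gene filter, and stayed 0 with the replicate block. Here WT and APP/PS1 animals share only a number, and their same-numbered sums had r of 0.002, -0.124, -0.062 and 0.037. The share of cells with all 4 markers, 39.2%, became 19.7% at 5 or more counts and 24.7% after thinning, and ran from 36.3% to 41.9% without each animal in turn.

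Leaving out 1 animal took the difference in log2 depth from -0.0101 to 0.235 against hippocampus and from -0.0449 to 0.328 against APP/PS1 cortex, and that in mitochondrial percent from -0.208 to 0.0164 against APP/PS1 cortex. Signs also turned for Prnp and for App, P2ry12, Sema4b and Cx3cr1, which passed no test in either comparison. Without cells with other types' counts, App had -1.47, P2ry12 0.15 and Prnp -1.27 against hippocampus, and App had -0.79, Sema4b 0.11 and P2ry12 0.17 against APP/PS1 cortex. P2ry12 had 0.0225 against hippocampus with at least 500 genes per cell, 0.0129 without cells of over 2000 genes and 0.0282 with only animals whose tag and title were in accord; with the last, App had -0.41 against APP/PS1 cortex. Against APP/PS1 cortex P2ry12 had 0.0346 with DESeq2, 0.0333 with its size factors, 0.0367 and 0.0155 without APP/PS1 animals 3 and 4 and 0.0197 and 0.0647 without WT animals 2 and 4, while it had -0.137 without WT animal 1. Sema4b had 0.0218 there without animals 2 and 3, and Cx3cr1 had -0.036 without WT animal 1. App had -0.027, -0.145 and -0.04 without APP/PS1 animals 1, 2 and 3, 1.37 without animal 4 and -0.121 without WT animal 2. The causes were not tested. Depth limits genes under 50 CPM most: they rest on a few cells per animal, and intervals of a count of 0 cover counting error only.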
